A study of Mus musculus with 45 samples.

Results

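When extrasynaptic NMDA receptors were activated 1 h into a burst of synaptic activity, transcript levels could either stay where they were at that moment or move away from it. To measure which, the 5 libraries of cultures that received TTX and NMDA for the second hour of a 2 h bicuculline treatment (LP TTX/NMDA, for long protocol) were compared with the 5 libraries harvested after 1 h of bicuculline alone (Bic 1 h), the state in which the additions were made. These 10 libraries, chosen by their treatment labels, are part of 45 in 9 conditions. All were poly-A RNA from primary hippocampal cultures of C57BL/6N mice at P0, grown with B27 and 1% rat serum, given AraC on DIV 3 to limit dividing cells, and treated on DIV 10 or 11 by the labels. The study's methods give DIV 11 for the RNA-seq. Bicuculline (Bic, 50 µM), which blocks GABA type A receptors and so sets off synchronous firing, was present in both groups. LP TTX/NMDA cultures also received TTX (1 µM), which blocks action potentials, and NMDA (30 µM). The groups thus differed in these additions and in 1 h of time. Values from 1 h Bic followed by 1 h of TTX alone (LP TTX), from 2 h of Bic without additions (Bic 2 h), from Bic for 0.5 h and from untreated cultures (control) are given beside them. Each of 5 culture preparations, numbered 1, 3, 6, 7 and 8 in the labels, gave 1 library to every condition, and values below are listed in that order.

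NMDA receptors are calcium-permeable glutamate receptors. Those at synapses link firing to a transcription programme through CREB and related factors, whose first products are immediate-early genes such as Fos, Egr1 and Arc and whose later products include secreted and synaptic proteins such as activin A and BDNF. Receptors outside the synapse, opened by bath NMDA, couple instead to CREB shut-off, mitochondrial dysfunction and death. A transcript level at the end of the hour is the sum of what was present at the start, what was made and what was lost. A level below that of Bic 1 h is therefore read here as a net loss over the hour. A level at or above it but below that of LP TTX or Bic 2 h is read as a smaller net gain than in those conditions. Counts give each transcript's share of its library only, so both readings are relative, and neither synthesis nor decay was measured.

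Library totals ran from 17229802 to 44206367 reads in Bic 1 h and from 13467115 to 48077885 in LP TTX/NMDA, and levels are given as CPM (a gene's reads scaled to a common library total, after TMM scaling). Bic 1 h libraries showed the activity programme, with Fos at 1041 ± 92.5 CPM (SD, n = 5) against 36.6 ± 6.90 in control and Arc at 893 ± 202 against 22.97 ± 8.50. The 14 neuron markers, all above 1 CPM on average, summed to 9741 to 11232 CPM in Bic 1 h and to 8682 to 9587 in LP TTX/NMDA. Markers of other cells that such cultures hold were higher in LP TTX/NMDA, as was the share of reads on mitochondrially encoded genes (0.614 to 0.829% in Bic 1 h, 1.40 to 1.87% in LP TTX/NMDA, 0.740 to 0.938% in LP TTX). In bulk RNA, fewer cells of a type and less RNA per cell cannot be told apart.

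In edgeR's quasi-likelihood test with the preparation as a block, 4337 of 15904 genes (27.3%) were higher after TTX/NMDA than at 1 h of Bic and 3987 (25.1%) were lower, at a Benjamini-Hochberg adjusted p under 0.05. Relative net loss was widespread but mostly small. Of the called genes 98 were lower by more than 2-fold and 391 were higher by more than 2-fold. The 95% interval of the change lay within 1.25-fold either way for 5214 genes (32.8%). The median over all genes tested was a log2 fold change of 0.03, and all changes below are relative to the same TMM scale. A change given for a gene, in brackets or after a verb, is its log2 fold change from Bic 1 h, with its SE where one follows.

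**Figure D1:**
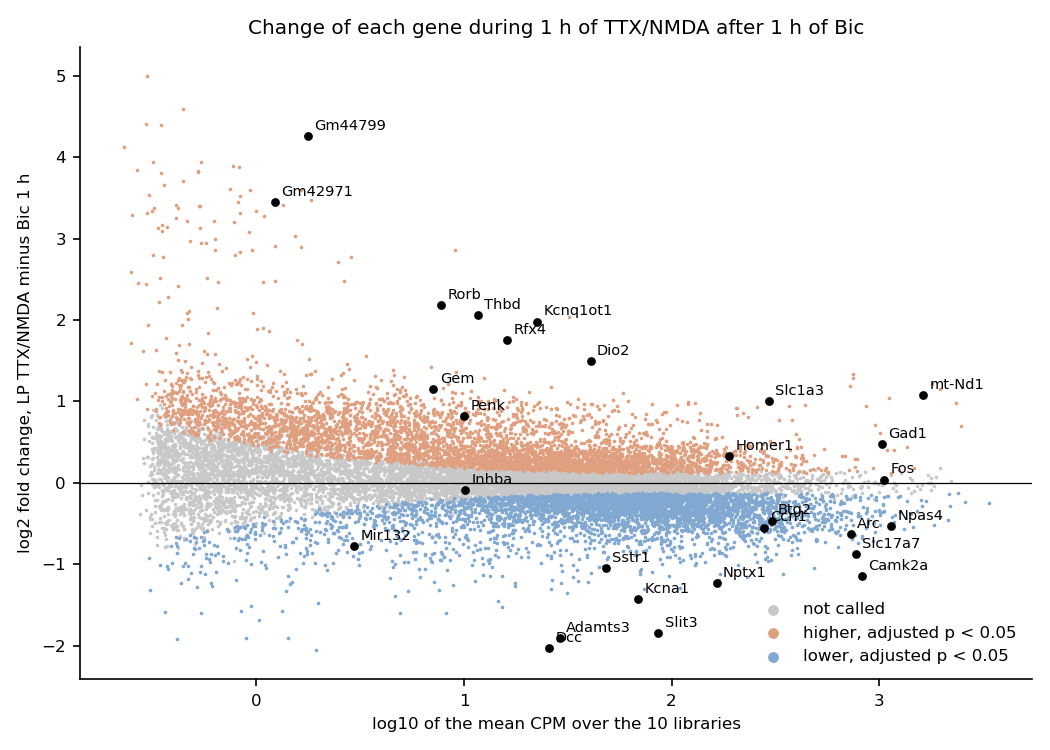
Log2 fold change (LP TTX/NMDA minus Bic 1 h, vertical axis) of each of 15904 genes against its mean level (log10 of the mean CPM over the 10 libraries, horizontal axis), with called genes in colour and some genes of the text named. The falls of Kcna1 (-1.43) and Dcc (-2.03) and the rise of Rorb (2.18) stand far outside the cloud, whereas Inhba (-0.09) and Fos (0.04) lie on the zero line.

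The first question was where the activity programme stood. Genes raised by 2 h of Bic against control (2195 of 15269, 14.4%) and by 0.5 h of Bic (80 of 14783, 0.541%) were called on libraries that are not in the comparison, so their choice does not fix a direction in it. Of the 2189 genes raised by 2 h of Bic that were tested, 720 (32.9%) were higher after TTX/NMDA than at 1 h, 598 (27.3%) were lower and 871 were not called. Their median log2 fold change was 0.03, the same as that of all genes, and it ranged from -0.04 to 0.09 across the 5 preparations. Only 11 of them were lower by more than 2-fold. In LP TTX, where 14.8% of all 15540 genes tested were higher and 14.4% lower than at 1 h (2293 and 2234 genes, against 1330 and 1124 without the block), the set had 914 of 2190 genes higher and 181 lower, a median of 0.12 (72 lower without the block and 90 without preparation 7). The same genes in Bic 2 h, the libraries that chose them, had medians from 0.17 to 0.23 over the preparations, against 1 h. Their median thus lay above the 1 h level in Bic 2 h and in LP TTX, and at it in LP TTX/NMDA. LP TTX, Bic 2 h and LP TTX/NMDA share the Bic 1 h libraries as their reference, so these values are set side by side only.

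By the size of the Bic response, the share of falls was 33.8% among the genes raised by less than 1.5-fold and 8.72 to 17.6% among those raised more. Among 102 tested genes that 2 h of Bic had raised by 4-fold or more, 38 rose further, 18 fell and 46 were not called, and none fell by more than 2-fold. Their median was 0.12, but by preparation it ran from -0.20 to 0.49 and was below 0 in preparations 1 and 8. Among 218 raised by 2- to 4-fold, 91 rose, 19 fell and 108 were not called, with a median of 0.19. Of 346 raised by 1.5- to 2-fold, 141 rose and 46 fell (median 0.17), and of 1523 raised by less than 1.5-fold, 450 rose and 515 fell (median -0.02). The genes raised by 0.5 h of Bic also differed between preparations. Of these 80, 19 were higher (23.8%), 26 were lower (32.5%) and 35 were not called, with a median of -0.08. By preparation the median was -0.25, 0.25, 0.10, -0.20 and -0.34, so it was above 0 in preparations 3 and 6 only. Genes lowered by 2 h of Bic (2284 of 15269, 15%, of which 2282 were tested) had 359 higher and 700 lower (30.7%), a median of -0.06.

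A pair of groups with opposite behaviour in TTX alone was then followed. Both were chosen after seeing the data, on the control, Bic 2 h and LP TTX libraries (16.2% of 15570 genes were lower in LP TTX than in Bic 2 h). The first group were 37 genes raised by 2 h of Bic and at least 2-fold lower in LP TTX than in Bic 2 h, termed firing-dependent here. After TTX/NMDA 11 of these were higher than at 1 h (29.7%), 12 were lower (32.4%) and 14 were not called. Over all genes 27.3% were higher and 25.1% lower. The median of the group was 0.07 and ranged from -0.25 to 0.24 over preparations, and no gene of it was lower by more than 2-fold. In LP TTX 28 of the 35 tested were lower than at 1 h, a median of -1.33, although LP TTX took part in choosing them. The second group were 130 genes that 2 h of Bic had raised at least 2-fold. They were not called lower in LP TTX than in Bic 2 h and are termed not-lowered here. A missing call does not show that their level was independent of firing. After TTX/NMDA 60 of the 125 tested were higher than at 1 h (48%), 7 were lower (5.6%) and 58 were not called, with a median of 0.28 that was above 0 in every preparation (0.12 to 0.48). In LP TTX 101 of 128 were higher and 0 lower, a median of 0.92. Set against LP TTX directly, where 33.6% of 16399 genes were higher and 28.5% lower in LP TTX/NMDA, the first group had 32 of 37 higher (median 1.27) and the second 91 of 129 lower (median -0.70), again as a description, since LP TTX was used in the choice.

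**Figure D2:**
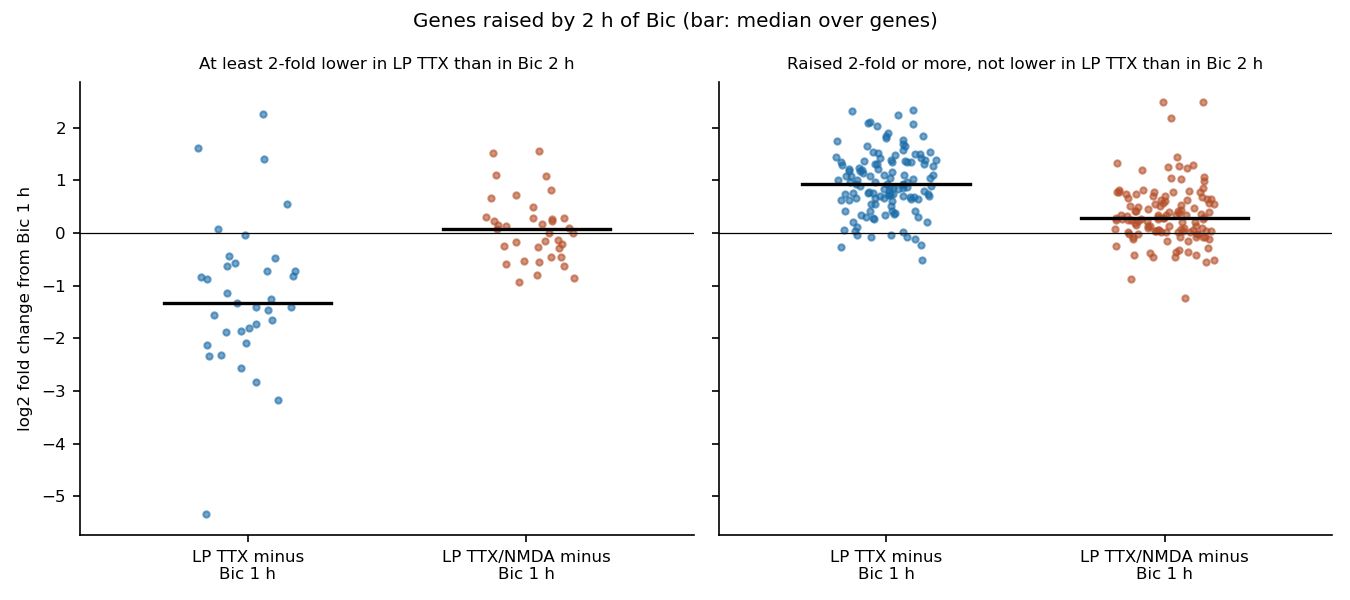
Log2 fold change from Bic 1 h (vertical axis) of the tested genes of the firing-dependent group (37 genes, left) and the not-lowered group (130 genes, right), in LP TTX and in LP TTX/NMDA, with 1 point per gene and the median as a bar. The medians lie at -1.33 and 0.92 in LP TTX and at 0.07 and 0.28 in LP TTX/NMDA.

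Inhba (ENSMUSG00000041324, chr13:16011851-16031621, plus strand, GRCm38 throughout) encodes the activin A subunit. Raised by 2 h of Bic (log2 2.62), it stood just outside the second group, since it was called lower in LP TTX than in Bic 2 h by 0.12 (adjusted p = 0.0435, edgeR). At 1 h of Bic it had 9.89, 10.4, 11.2, 11.9 and 8.77 CPM, against a control mean of 7.77 ± 0.500, and after TTX/NMDA it had 8.78, 9.08, 13.3, 7.40 and 10.7 CPM. The groups overlapped, preparations 6 and 8 being higher after TTX/NMDA and the other three lower. Expressed per preparation, LP TTX/NMDA held 95.6% ± 24.5 (SD, n = 5) of the 1 h level, whereas LP TTX reached 423% ± 56.1. The log2 fold change from 1 h was -0.09 ± 0.12 (SE), with a 95% interval of -0.35 to 0.17 and an adjusted p = 0.556. Against LP TTX, at 36.9 to 49.8 CPM, the log2 difference was -2.16 ± 0.08 (adjusted p = 2.32e-12, edgeR). No net loss of Inhba transcript from the 1 h level was detectable within that interval, while the rise seen in LP TTX was missing.

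Homer1, which encodes a postsynaptic scaffold with a short activity-induced form that these gene counts do not separate, rose in LP TTX to 505% ± 58.4 of its 1 h level. Its values were 160.0, 127, 182, 180.2 and 187 CPM at 1 h and 141, 242, 277, 185 and 209 after TTX/NMDA, lower in preparation 1, higher in the other 4, and with overlapping ranges. The change of 0.32 ± 0.13 missed the threshold (adjusted p = 0.0505) and passed it in 6 of 13 alternatives, with 0.45 (adjusted p = 0.00823) without preparation 1 and 0.41 (adjusted p = 0.0337) without preparation 7. Against LP TTX it was lower by 2.01 on the log2 scale (adjusted p = 8.17e-11). Homer1 was thus higher than at NMDA addition in some fits and in none lower, and it was far below the level with TTX alone.

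Further genes had small changes from 1 h with large rises in LP TTX. For Rnf217, a ubiquitin ligase gene, the log2 fold change was 0.01 ± 0.08 with an interval within 1.25-fold either way, against 2.04 in LP TTX. Zdbf2, an imprinted gene, had 0.04 against 1.84, and Phf21b, which encodes a chromatin-binding protein, had -0.15 against 1.48. Nptx2 (-0.06), Nrn1 (-0.07) and Scg2 (-0.00022), for secreted or synaptic proteins, showed the same in smaller steps, with 1.02, 0.76 and 0.65 in LP TTX. None of these 6 was called against 1 h, and all 6 were lower in LP TTX/NMDA than in LP TTX. Other genes for secreted or synaptic proteins rose or fell, as given below.

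**Figure D3:**
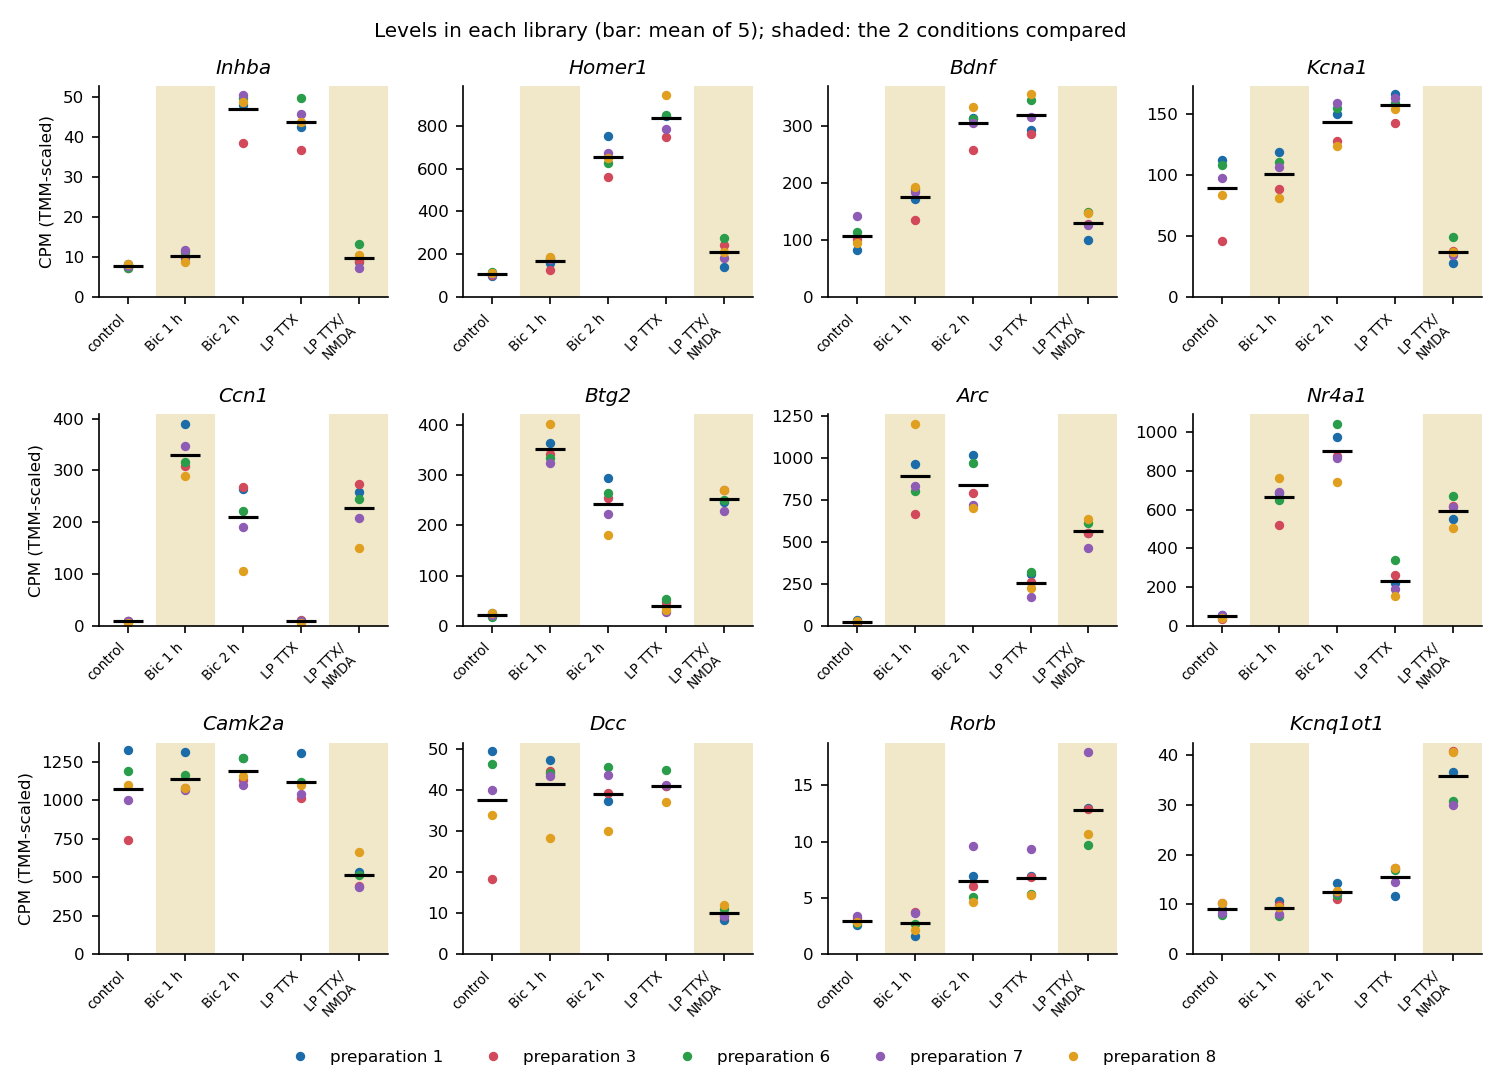
CPM (vertical axes, each from 0) of named genes in control, Bic 1 h, Bic 2 h, LP TTX and LP TTX/NMDA, with 1 point per preparation, the mean as a bar and shading for the conditions compared. Inhba and Homer1 in LP TTX/NMDA sit beside Bic 1 h and below LP TTX, whereas Ccn1 and Btg2 sit a little below Bic 1 h and far above LP TTX.

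The firing-dependent group behaved the other way round between the interventions. Ccn1 (the matricellular protein formerly Cyr61, ENSMUSG00000028195, chr3:145646976-145649981, minus strand) had 389, 308, 317, 347 and 289 CPM at 1 h of Bic and 259, 274, 244, 208 and 149 after TTX/NMDA. Every preparation was lower, and the groups did not overlap. The fall was 0.55 ± 0.09 (SE) on the log2 scale (adjusted p = 0.000399), which left 68.9% ± 14.6 of the 1 h level. In LP TTX only 2.47% ± 0.591 was left, 4.89 to 10.3 CPM, and the difference between the interventions was 4.80 ± 0.06 (adjusted p = 3.68e-19). Ccn1 therefore kept most of its 1 h level with TTX/NMDA, and with TTX alone it was near its control level of 8.02 ± 1.75 CPM.

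Btg2, an antiproliferative cofactor of the mRNA deadenylases (ENSMUSG00000020423, chr1:134075170-134079120, minus strand), had 364, 343, 334, 325 and 403 CPM at 1 h and 247, 271, 251, 229 and 270.0 after TTX/NMDA, again without overlap. This was a fall of 0.46 ± 0.05 (adjusted p = 2.72e-05), to 71.9% ± 5.03 of the 1 h level, against 11.5% ± 3.56 in LP TTX. Dusp1, the nuclear phosphatase that switches off MAP kinases (ENSMUSG00000024190, chr17:26505590-26562128, minus strand), had 235, 177, 207, 235 and 229.8 CPM at 1 h and 181, 167, 175, 179 and 168 after TTX/NMDA, a fall of 0.30 (adjusted p = 0.0017) to 81.1% ± 8.64, against 17.6% ± 5.47 in LP TTX. Its lowest 1 h library, preparation 3, was still within the LP TTX/NMDA range. Trib1, a pseudokinase, fell by 0.58 (adjusted p = 0.000368) from 1 h, and by 2.32 in LP TTX. All 4 genes were lower than at 1 h and higher than in LP TTX. They belong to the 12 genes of the group that fell, whereas 11 others rose, such as Tnfaip6 (1.56) and Serpinb2 (1.09).

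The promoters of Btg2 and Dusp1 are shown because both carry the full cAMP response element, TGACGTCA, to which CREB binds and which reads the same on both strands. These are the 250 bases before the RefSeq gene start in GRCm38.p6, 5′ to 3′ on the minus strand (Btg2 chr1:134079156-134079405, Dusp1 chr17:26508473-26508722), with the element in capitals, 166 and 143 bases before the start.
Btg2: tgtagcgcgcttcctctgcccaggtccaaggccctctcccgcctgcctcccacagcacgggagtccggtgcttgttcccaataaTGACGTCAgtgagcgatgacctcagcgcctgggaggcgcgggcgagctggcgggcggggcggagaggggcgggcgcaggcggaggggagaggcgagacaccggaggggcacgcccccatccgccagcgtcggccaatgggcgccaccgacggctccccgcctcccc
Dusp1: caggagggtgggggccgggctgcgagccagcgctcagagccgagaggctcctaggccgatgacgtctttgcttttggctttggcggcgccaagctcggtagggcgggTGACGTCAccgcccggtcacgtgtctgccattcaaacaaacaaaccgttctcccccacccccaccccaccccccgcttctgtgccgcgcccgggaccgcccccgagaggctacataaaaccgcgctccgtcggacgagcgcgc
The element was in 10 of 83 such promoters (12%) of the genes raised by 0.5 h of Bic, of which 63 of 80 had a RefSeq entry, in 85 of 2157 (3.94%) of the genes raised by 2 h of Bic, and in 508 of all 32851 (1.55%). The half-site TGACG on either strand, which every full element also holds, was in 53%, 31.9% and 17.8%. A match says only that these letters are present.

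Most genes of the immediate-early transcription factor families were not called against their 1 h level. Fos had 1098, 877, 1067, 1084 and 1079 CPM at 1 h and 967, 1243, 1226, 1032 and 871 after TTX/NMDA, with preparation 3 lowest at 1 h and highest afterwards. Its change was 0.04 ± 0.10 (adjusted p = 0.75), an interval of -0.17 to 0.25. Of 7 genes for Fos and Jun factors none was higher and 1 was lower, Jun (-0.34), of 6 for Egr factors and their Nab corepressors 1 was lower, Egr3 (-0.52), and of 3 Nr4a receptors 1 was lower, Nr4a3 (-0.38), a call that was lost without preparation 1 (adjusted p = 0.0674) or 7 (adjusted p = 0.0737) and in DESeq2 (0.0844). Egr1 had 1109, 819, 1030.4, 978 and 1146 CPM at 1 h and 798, 926, 961, 784 and 896 after TTX/NMDA, a change of -0.20 ± 0.08 (adjusted p = 0.0592). Preparation 3 was the one library pair in which Egr1 was higher after TTX/NMDA. Without preparation 3 the change of Egr1 was -0.30 (adjusted p = 0.00309), that of Fosb -0.34 (0.0101), of Junb -0.29 (0.0238), of Egr4 -0.41 (0.0102) and of Nr4a1 -0.25 (0.0275), all then called lower, and the 80 early genes had 35 lower and 14 higher. With all 5 preparations Egr1 was also called lower by DESeq2 (-0.21, adjusted p = 0.0324) and, with every gene that had 1 read and no block, Egr1 (-0.23, 0.0436) and Egr4 (-0.30, 0.0468). The calls of these genes therefore depended on preparation 3 and, for Egr1 and Egr4, also on the method.

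Nr4a1, an orphan nuclear receptor, and Klf4, a zinc finger factor, had changes of -0.15 ± 0.10 and 0.16 ± 0.12 from 1 h, neither called, against -1.55 and -2.13 in LP TTX. Without preparation 7 Klf4 had a change of 0.30 (adjusted p = 0.0428). Ier2 had -0.00049 against -0.87. Npas4, a neuron-specific factor induced by calcium entry, fell from 1469, 1042, 1283, 1454 and 1553 to 861, 986, 1046, 919.8 and 821 CPM, by 0.53 ± 0.10 (adjusted p = 0.00101), with every preparation lower and the ranges overlapping only through preparation 3 at 1 h (1042) and preparation 6 after TTX/NMDA (1046). Of 25 other activity-induced transcription regulators, Npas4 and Klf4 among them, 9 were higher and 5 lower, with Id1 (0.62), a helix-loop-helix inhibitor, among the rises and Npas4 (-0.53), Trib1 (-0.58) and Csrnp1 (-0.37) among the falls. Id1 missed the threshold without the block (adjusted p = 0.0509). Feedback inhibitors of kinase signalling had 5 higher and 6 lower of 16. Over all genes 27.3% were higher and 25.1% lower.

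Arc and Bdnf were the best known of the genes that ended below the 1 h level. Arc, the synaptic capsid-like protein that drives AMPA receptor endocytosis, had 963, 666, 803, 833 and 1201 CPM at 1 h and 552, 552, 611, 461 and 639 after TTX/NMDA, every preparation lower and the groups not overlapping. It fell by 0.63 ± 0.09 (adjusted p = 0.000119) to 65.0% ± 13.5 of the 1 h level, against 30.0% ± 10.02 in LP TTX. Bdnf, the neurotrophin, had 173, 135, 190.3, 184 and 194 CPM at 1 h and 99.6, 128, 149, 126 and 147 after TTX/NMDA. It was lower in all 5 preparations, with overlapping ranges and with 57.7 to 95.3% of the 1 h level left, and the fall of 0.42 ± 0.09 (adjusted p = 0.00162) contrasted with a rise of 0.87 in LP TTX. The direct difference from LP TTX was -1.30 ± 0.05 (adjusted p = 8.22e-12), so that for Bdnf a relative net loss of 0.42 came with a missing rise of 0.87. With 130.1 ± 20.1 CPM it stayed above the control level of 108 ± 22.98 (log2 0.30, adjusted p = 0.0276).

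Losses were common among the genes that the study discusses by name, of which 28 were tested. After TTX/NMDA 16 of these were lower than at 1 h and 4 higher (25.1% and 27.3% over all genes), and 8 were not called. Their median was -0.40. The study chose them on these libraries, so their directions are not independent evidence. Kcna1, the voltage-gated potassium channel Kv1.1 (ENSMUSG00000047976, chr6:126640397-126646384, minus strand), had 119, 88.4, 110.3, 106 and 81.6 CPM at 1 h and 28.3, 37.9, 49.0, 34.4 and 36.9 after TTX/NMDA, a wide gap between the groups. Its fall of 1.43 ± 0.12 (adjusted p = 3.4e-06) left 37.7% ± 9.36 of the 1 h level, against 158% ± 19.6 in LP TTX, and took it below control (log2 -1.20, adjusted p = 0.000459). Sstr1, a somatostatin receptor, went from 67.7, 67.1, 63.0, 73.5 and 53.2 to 29.1, 36.6, 37.4, 29.4 and 23.96 CPM, with no overlap and 48.4% ± 8.20 left, while LP TTX held 109% ± 16.5. Ptchd1, an X-linked patched-domain gene, fell by 0.88 against a rise of 0.97 in LP TTX. Smaller falls were those of Ankrd33b (-0.54), Shisa2 (-0.54) and the protocadherin gene Pcdh8 (-0.54).

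**Figure D4:**
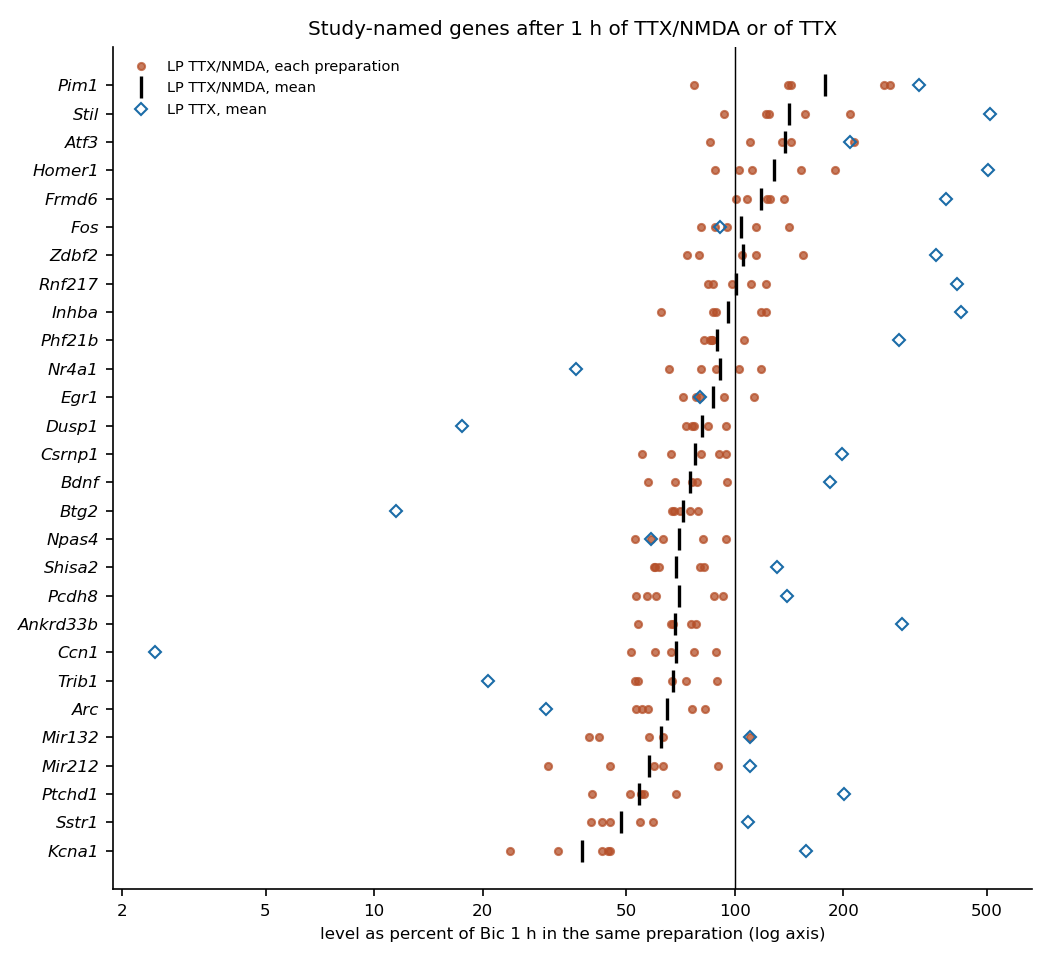
Level after the second hour as a percentage of the Bic 1 h level of the same preparation (horizontal axis, log scale) for the study-named genes tested, with filled points for the 5 preparations of LP TTX/NMDA, a bar for their mean and an open diamond for the mean of LP TTX. In LP TTX/NMDA the means run from 37.7% for Kcna1 to 178% for Pim1, whereas in LP TTX they run from 2.47% for Ccn1 to 511% for Stil.

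The hairpins of miR-132 and miR-212, which lie next to each other in an activity-induced host transcript, were also counted. Their mature sequences are printed because they show that both share a seed, AACAGUC (bases 2 to 8, in capitals), the part of a miRNA that pairs with its targets. They are RefSeq entries for GRCm38.p6 on the plus strand (chr11:75173723-75173744 and chr11:75173443-75173464).
mmu-miR-132-3p: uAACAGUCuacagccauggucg
mmu-miR-212-3p: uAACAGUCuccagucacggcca
Mir132 had 4.17, 3.35, 2.90, 3.71 and 4.44 CPM at 1 h and 1.65, 2.12, 3.19, 2.15 and 1.87 after TTX/NMDA, and Mir212 4.83, 2.87, 3.48, 4.44 and 5.35 and 2.18, 2.59, 2.20, 2.65 and 1.63. Levels were low, and the groups did not overlap for Mir212 but did for Mir132, with preparation 6 higher after TTX/NMDA than at 1 h. The falls were 0.78 (adjusted p = 0.00348) and 0.85 (adjusted p = 0.00241), whereas the log2 fold changes in LP TTX were 0.10 and 0.08. In poly-A libraries these reads come from unprocessed transcript over the hairpin, so they do not measure the mature miRNAs.

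Of 30 genes for activity-induced synaptic and secreted proteins 10 were higher and 9 lower than at 1 h, near the shares over all genes (27.3% and 25.1%). Gem, a small GTPase that limits calcium channels, had 3.87, 4.66, 4.48, 5.43 and 3.80 CPM at 1 h and 10.8, 10.4, 8.51, 11.2 and 8.10 after TTX/NMDA, without overlap, a rise of 1.15 ± 0.09 (adjusted p = 2.96e-06). The opioid precursor Penk (0.82) and the tachykinin precursor Tac1 (0.78) also rose, whereas Nptx1, a synaptic pentraxin, fell by 1.23, with 200.2 to 299.9 CPM at 1 h and 82.7 to 114 after TTX/NMDA, and Lingo1, a leucine-rich repeat protein of neurons, fell by 0.88. Among the study-named genes the rises were Pim1 (0.72), Stil (0.49), Atf3 (0.41) and Frmd6 (0.25). These were weak calls. In LP TTX Pim1 rose by 1.62 and Stil by 2.32, more than after TTX/NMDA, and Penk by 0.55, less than after TTX/NMDA. The difference of Penk from LP TTX was not called in 5 of 8 alternatives. Pim1, a survival kinase gene, had 3.34, 3.03, 3.01, 4.51 and 6.21 CPM at 1 h and 4.78, 8.17, 7.80, 6.35 and 4.79 afterwards, and its adjusted p was 0.0666 without preparation 3 and 0.08 without preparation 6, and 0.0732 in DESeq2. Without those preparations in turn, Stil had 0.0909 and 0.0676, Atf3 0.0879 and 0.0944 (and 0.0569 without preparation 7), and Frmd6 0.0746 and 0.0539 (and 0.102 without the block). Atf3 was past the threshold in 5 of 13 alternatives only.

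Genes for the excitability and synaptic machinery of neurons were more often lower than higher than at 1 h, against backgrounds of 27.3% higher and 25.1% lower over all genes. Of 31 voltage-gated potassium channels 23 were lower and 1 was higher, Kcnc2 (0.20), a call that was lost without the block (adjusted p = 0.0786), with a median of -0.41. Examples besides Kcna1 were the M-current channel Kcnq5 (-0.95) and the silent subunit Kcng3 (-0.98). Of 23 sodium and calcium channel genes 17 were lower and none higher, a median of -0.41, including Cacna1e (-0.86), Cacna1c (-0.93) and Scn2a (-0.59). In LP TTX the same lists had 6 higher and 6 lower, and 3 higher and 5 lower, against 1 h. Members ranged from -1.43 to 0.23 in the first list and from -0.93 to 0.07 in the second.

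Of 15 ionotropic glutamate receptor genes 9 were lower and 2 higher (median -0.23). Among the NMDA receptor subunits, Grin2b had 791, 678, 743, 651 and 585 CPM at 1 h and 393, 390.2, 435, 362 and 481 after TTX/NMDA, no overlap, a fall of 0.73 ± 0.09 (adjusted p = 3.11e-05). Grin2a fell by 0.69 and the obligatory subunit Grin1 by 0.55. GABA type A receptors had 6 lower and 4 higher of 12, with Gabrb1 (-0.80) among the falls. Of 24 genes of the presynaptic release machinery 12 were lower and none was higher, led by the vesicle protein Sv2b (-0.94) and the active zone protein Bassoon (Bsn, -0.87).

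The activin pathway, in which Inhba was not called, had 9 lower and 1 higher of 14, against 25.1% and 27.3% over all genes. Its receptor Acvr1c (ALK7) went from 6.61, 6.26, 7.74, 4.59 and 5.40 to 2.20, 2.43, 3.12, 2.60 and 3.11 CPM, a fall of 1.17 (adjusted p = 1.9e-05), and the activin B subunit Inhbb fell by 0.76. Follistatin (Fst), which binds and neutralizes activin, rose by 0.60 (adjusted p = 0.000206). In Bic 1 h Inhbb was highest in preparation 6, at 33.3 CPM.

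Among neuron markers 6 of 14 were lower and 3 higher, against 25.1% and 27.3% over all genes. Markers of excitatory neurons were among the falls, with Camk2a, the kinase of the postsynaptic density, at 1309.7, 1082, 1166, 1063 and 1082 CPM at 1 h and 536, 439.7, 513, 434 and 661 after TTX/NMDA (-1.14 ± 0.08, adjusted p = 1.59e-06), and the vesicular glutamate transporter Slc17a7 at 54.3% ± 6.51 of the 1 h level. Prox1, the homeobox gene of dentate granule cells, fell by 0.91. The 3 higher ones were genes of inhibitory neurons, Gad1 (0.47), Gad2 (0.44) and Slc32a1 (0.25), the last not called without the block (adjusted p = 0.0829). The difference of Gad2 from LP TTX was not called in 5 of 8 alternatives. In LP TTX neither Camk2a (-0.04) nor Slc17a7 (-0.07) was called against 1 h. Of the 14 markers 7 were higher and 1 lower there, against 14.8% and 14.4% over all genes.

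Among named genes with a mean of at least 1 CPM and 1 direction in all 5 preparations, the largest falls were those of Chrm5 (-2.06), a muscarinic receptor, Dcc (-2.03), the netrin receptor, the extracellular protease Adamts3 (-1.90), the guidance factor Slit3 (-1.85), Fcgbp (-1.68), the somatostatin receptor Sstr4 (-1.59), the heparan sulfate sulfotransferase Hs6st3 (-1.53), Il16 (-1.45), Kcna1 and Stxbp5l (-1.36). Dcc had 47.3, 44.7, 44.1, 43.3 and 28.3 CPM at 1 h, lowest in preparation 8, and 8.28, 9.35, 11.1, 9.32 and 12.04 after TTX/NMDA, and 25.5% ± 9.89 of its level was left. In LP TTX its level was 101% ± 17.5. Fcgbp had 0.386 to 0.765 CPM after TTX/NMDA and met the minimum of 1 CPM only through Bic 1 h. A gene that low after TTX/NMDA could pass only by being higher at 1 h. Among genes raised by 2 h of Bic the largest falls after Slit3 and Kcna1 were those of the sodium-calcium exchanger Slc8a1 (-1.31), the ghrelin receptor Ghsr (-1.24) and the guanylate cyclase subunit Gucy1a2 (-1.21). Epha6, Dok6, Atp2b3, Sstr1 and Pcdha11, which shares exons with its neighbours and is uncertain, completed the 10. Among the genes that 2 h of Bic had lowered the largest further falls were Gpr63 (-1.32), Pcdh20 (-1.22), Zkscan16 (-1.14), Nr3c2 (-1.12) and Sema3e (-1.07).

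The 10 largest rises were taken under the same conditions. Rorb, an orphan nuclear receptor, had 1.61, 3.74, 2.64, 3.67 and 2.14 CPM at 1 h and 12.96, 12.9, 9.72, 17.96 and 10.6 after TTX/NMDA, without overlap, a rise of 2.18 ± 0.13 (adjusted p = 6.52e-07) against 1.23 in LP TTX. Kcnq1ot1, a long nuclear antisense RNA at the Kcnq1 locus, had 10.7, 9.93, 7.61, 8.07 and 9.52 and 36.7, 40.8, 30.8, 29.9 and 40.6 CPM, a rise of 1.98 (adjusted p = 1.12e-08). Thbd (thrombomodulin, 2.06), the potassium channel Kcnk5 (1.89), the transcription factor Rfx4 (1.75), the matrix protein Tnfaip6 (1.56), the deiodinase Dio2 (1.49), Il1rl2 (1.48), the co-chaperone Bag3 (1.43) and the cytokine Lif (1.39) followed. All 10 except Il1rl2 had also been raised by 2 h of Bic, where Kctd11 (1.37) was the tenth. Rfx4 and Dio2 are typical of astrocytes, and Thbd of endothelium.

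Markers of other cells moved with the group. Of 11 astrocyte markers tested 10 were higher and 1, the glutamate transporter Slc1a2 (-0.24, adjusted p = 0.07 without preparation 6), was lower, with a median of 0.81 and Slc1a3 (1.00), Aqp4 (1.01) and Gfap (0.77). Oligodendrocyte markers had 8 of 9 higher (median 0.75), microglia markers 4 of 8 (0.51) and endothelial and mural markers 4 of 6, with 1 lower (0.74). The summed levels ran from 1080 to 1711 CPM in Bic 1 h and 1443 to 2576 in LP TTX/NMDA for astrocytes, from 138 to 219 and 176 to 357 for oligodendrocytes, from 9.65 to 16.8 and 16.1 to 24.1 for microglia, and from 15.9 to 27.3 and 28.9 to 41.6 for endothelial and mural cells. The astrocyte, oligodendrocyte and microglia ranges overlapped between the groups and the endothelial and mural ranges did not, and 5 of the 10 microglia markers were under 1 CPM on average. Gjb6 of astrocytes and Cldn5 of endothelium were near 0, at 0.0584 and 0.0153 CPM in Bic 1 h and 0.0406 and 0.0324 in LP TTX/NMDA. Their part in the falls of neuronal genes and in the rises above was not tested.

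**Figure D5:**
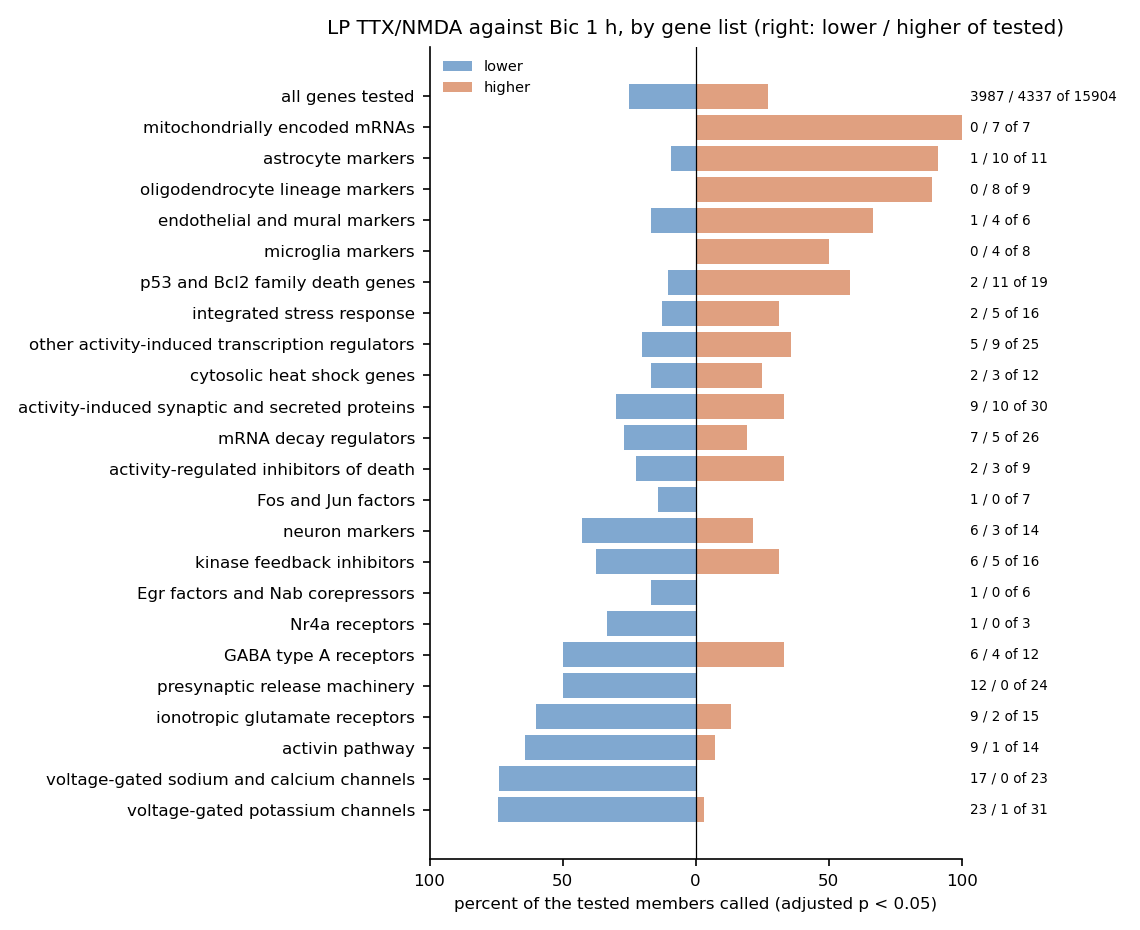
Percent of the tested members of each gene list (rows) called lower (left) or higher (right) in LP TTX/NMDA than in Bic 1 h at an adjusted p under 0.05, with the numbers at the right edge. The channel lists, with 23 of 31 and 17 of 23 lower, lie opposite to the mitochondrial and glial lists, and all genes tested (3987 lower, 4337 higher) stand at the top.

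All 7 mitochondrially encoded mRNAs tested were higher, with a median of 1.04. The complex I subunit mt-Nd1 had 1002, 1184, 1127, 1067 and 912 CPM at 1 h and 2171, 2186, 2499, 2309 and 1900.4 after TTX/NMDA, no overlap, a rise of 1.08 ± 0.05 (adjusted p = 8.89e-08), and LP TTX had 0.17 against 1 h. The mitochondrial mRNAs summed to 4582 to 6804 CPM in Bic 1 h. In LP TTX/NMDA the sum was 9530 to 13731. Among genes lowered by 2 h of Bic the largest rises were those of the non-coding RNA Dancr (1.33), mt-Rnr1 (1.29), mt-Rnr2 (1.21), mt-Cytb (1.15) and Ccdc122 (1.11).

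Of 19 p53 and Bcl2 family death genes 11 were higher and 2 lower (median 0.25), against 27.3% higher and 25.1% lower over all genes, to which the further counts here also compare. Rises included the death receptor Fas (0.85), the BH3-only genes Pmaip1 (0.67) and Bcl2l11 (0.64) and the cell cycle inhibitor Cdkn1a (0.62), whereas the neuronal BH3-only gene Hrk fell by 0.53. With TTX alone the same list had 9 higher and 4 lower of 19, where 14.8% and 14.4% of all genes were called. Bcl2l11 rose by 0.84 in LP TTX. Integrated stress response genes had 5 higher and 2 lower of 16. The cystine transporter Slc7a11 rose by 0.92 and Ddit3 by 0.43, the latter not called without the block (adjusted p = 0.381). For Ddit3 preparation 8 stood apart in both groups, at 95.3 and 106 CPM. Cytosolic heat shock genes had 3 higher and 2 lower of 12, activity-regulated inhibitors of death 3 higher and 2 lower of 9, and regulators of mRNA decay 5 higher and 7 lower of 26. The rising shares of these lists and of the stress response list lay near that of all genes. In the decay list Zc3h12a (0.76) rose, a call lost without preparation 1 (adjusted p = 0.0718) or 8 (0.063) and in DESeq2 (0.135), and Zfp36l1 (0.73) also rose.

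The largest rises among genes with a mean of at least 1 CPM were those of 10 unnamed transcript models, of which 8 lie inside a protein-coding gene on the same strand. All except A230103L15Rik were under 1 CPM in every Bic 1 h library and met that minimum only through LP TTX/NMDA. A model that low at 1 h could pass only by being higher there. Gm44799 (ENSMUSG00000109095, chr8:9658248-9659449, minus strand) lies in Fam155a and had 0.119, 0.383, 0.0927, 0.115 and 0.107 CPM at 1 h and 4.19, 3.22, 3.26, 3.02 and 3.25 after TTX/NMDA, a log2 fold change of 4.26 ± 0.26 (adjusted p = 7.42e-07). In LP TTX it had 0.0445 to 0.567 CPM. Gm42970 (3.60) and Gm42971 (3.45) lie in Ank2, Gm44677 (3.48) and Gm44678 (3.42) in Dlg2 and Gm42991 (3.28) in Auts2. The counts of the host genes, which take only exonic reads, went the other way for Dlg2 (-0.72), Auts2 (-0.37) and Ank2 (-0.36), and Fam155a had -0.05, not called. Counting was strand-specific, and whether these reads come from separate transcripts or from unspliced host RNA cannot be told apart.

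Gene length went with the direction of change among nuclear protein-coding genes. In the quintile with the shortest span, up to 8.89 kb, 1070 of 2794 were higher (38.3%) and 378 lower (13.5%). In the quintile with the longest, from 82.1 kb, 569 were higher (20.4%) and 1229 lower (44%), and the quintiles between changed in steps, with medians of 0.14, 0.06, 0.02, -0.05 and -0.12 from the shortest to the longest. These quintiles were set after seeing the data. The part of span in the falls of the channel and synaptic lists was not tested.

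The change over 1 h of TTX/NMDA was also compared with that over 0.5 h in the short protocol (0.5 h Bic, then 0.5 h TTX/NMDA). The difference between the changes was called in 974 genes upward (6.08%) and 1018 downward (6.35%) of 16030 with the block. Without the block these numbers were 38 and 32, so most of these calls rest on the pairing of preparations. They were 357 and 205 without preparation 1, 474 and 619 without preparation 6 and 590 and 671 without preparation 7, and without preparation 3 the downward calls were 628. Homer1 had 0.32 in the long and -0.27 in the short protocol (adjusted p of the difference 0.0107, edgeR) and Fos 0.04 and -0.48 (0.0243). Both calls were lost without preparation 6 (adjusted p = 0.0595 and 0.116) and without the block. For Kcna1, with -1.43 and -1.01, and for Inhba, with -0.09 and -0.29, the difference was not called (adjusted p = 0.0517 and 0.426). That of Kcna1 was called in DESeq2, with DESeq2 size factors and without preparation 8.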

How the data were processed

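Per the labels and the study's methods, libraries were poly-A enriched and directional, and were sequenced single-end for 75 cycles. The authors used bcl2fastq 2.20.0.422, aligned reads with STAR 2.5.4b to GRCm38 and counted uniquely assigned, strand-matched reads per gene with featureCounts 1.6.5, and deposited raw read counts for 54532 genes, 1 column per library. From these counts, genes were filtered with filterByExpr, TMM-scaled and tested with edgeR 4.0.16 (R 4.3.3, glmQLFit and glmQLFTest, Benjamini-Hochberg adjusted p under 0.05), each comparison on its own 10 libraries (20 for the long against the short protocol). The culture preparation was a block, since the labels name it. Same-numbered libraries deviated together (correlations of 0.166 to 0.640 over 13706 genes), and no 2 libraries were identical. Preparations are separate cultures, and within-group correlations were at least 0.984. The fits were tested on simulated data. Alternatives were no block, other filters and scaling, DESeq2 1.42.0, all 45 libraries in 1 fit, mitochondrially encoded genes left out, a 1.5-fold minimum and each preparation left out. Named genes were the 10 largest called rises and falls with 1 direction in all 5 preparations and a mean of at least 1 CPM. The same without unnamed models, the largest among genes raised (10) or lowered (5) by 2 h of Bic, and members of the gene lists were added. Members and lists were chosen with earlier results of these data known.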

Additional observations from a re-analysis of the deposited data

Results flagged for a closer look

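Among 274 pairs of a named gene and a group of 5 libraries, 13 had 1 library far from the other 4 by Dixon's ratio, and chance alone marks about 1 in 20. In Bic 1 h these were preparation 3 for Fos (877 CPM, the others 1067 to 1098) and for Gm44799 (0.383, the others 0.0927 to 0.119), preparation 6 for Tac1 (48.6) and Inhbb (33.3), and preparation 8 for Dcc (28.3) and Ddit3 (95.3). In LP TTX/NMDA they were preparation 1 for Fcgbp (0.765) and Gm44799 (4.19), preparation 3 for Shisa2 (13.6), preparation 6 for Egr4 (543), preparation 7 for Phf21b (4.16), preparation 8 for Ddit3 (106) and preparation 6 for Gm42991 (2.41). Preparation 8 was high for Ddit3 in both groups.

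The change over 1 h of TTX/NMDA differed from that over 0.5 h in the short protocol for 24 of 47 genes tested (edgeR, difference of the log2 changes with the block, adjusted p under 0.05), against 6.08% upward and 6.35% downward over all genes. Of the 47, 20 had been named for the size of their change in the long protocol, so a larger change there is built into their choice, and 17 of the 24 are among them. The study chose the other 27 on these libraries, and 7 of these differed. The difference was upward for Homer1 (0.62), Fos (0.52), Atf3 (0.72), Stil (0.80), Frmd6 (0.48), Rorb (1.87), Thbd (1.15), Kcnq1ot1 (1.47), Rfx4 (1.39), Tnfaip6 (1.11), Dio2 (0.99), Bag3 (0.84) and Lif (1.15), and downward for Ptchd1 (-0.49), Sstr1 (-0.52), Chrm5 (-1.34), Dcc (-0.79), Adamts3 (-1.01), Slit3 (-0.85), Fcgbp (-1.04), Sstr4 (-0.85), Hs6st3 (-0.90), Il16 (-0.75) and Stxbp5l (-0.48). For Homer1, Fos, Atf3, Stil and Frmd6 the change was above 0 in the long and below 0 in the short protocol (0.32 and -0.27, 0.04 and -0.48, 0.41 and -0.29, 0.49 and -0.32, 0.25 and -0.21). All 5 of these calls were lost without preparation 6 (adjusted p = 0.0595, 0.116, 0.182, 0.0745 and 0.0874) and without the block. Atf3 and Stil were also lost without preparation 1, 3 or 7, Frmd6 without preparation 1 and Atf3 in DESeq2 (0.0843). Of the 24 calls, 12 were lost when some 1 preparation was left out. Without the block, Rorb, Kcnq1ot1, Rfx4, Adamts3 and Hs6st3 among these 24 still passed. Bic had run for 0.5 h before the addition in the short protocol and for 1 h in the long one, so the duration of TTX/NMDA and the preceding Bic cannot be told apart.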

How the results depend on the processing

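No called result reversed direction under any alternative. Of 137 named genes, 97 kept their status, called or not called, from 1 h of Bic in each of up to 13 alternatives. The other comparisons were run in up to 8 (no block, DESeq2, its size factors and each preparation left out). In these, 119 kept their status for the difference from LP TTX, 63 for that between protocols and 86 of 132 for LP TTX against 1 h. The counts higher and lower from 1 h of Bic (4337 and 3987) were 3374 and 3283 without the replicate block, 3438 and 3660 with DESeq2, and 4574 and 4592 in 1 fit of all 45 libraries. A 1.5-fold minimum, which drops small changes by construction, left 1669 and 637 of all genes, 315 and 104 of those raised by 2 h of Bic, 44 and 75 of those lowered by it and 6 and 5 of those raised by 0.5 h of Bic. With every gene that had 1 read and no block, 195 of the genes lowered by 2 h of Bic were higher, against 359. Without the block, the protocols differed in 38 and 32 genes and LP TTX from 1 h in 1330 and 1124, with 72 lower of those raised by 2 h of Bic and 12 higher of those raised by 0.5 h. The cause was not tested. The block changed no other count by more than 1.5 times.

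Leaving out each preparation in turn gave 3632 to 4514 genes higher and 3175 to 4299 lower from 1 h. For genes raised by 2 h of Bic it gave 625 to 788 and 488 to 609, for those lowered by it 295 to 348 and 501 to 845, and for those raised by 0.5 h 14 to 26 and 21 to 35. Against LP TTX it gave 4800 to 5133 and 4258 to 4506, and between protocols 357 to 777 and 205 to 1051. LP TTX against 1 h had 1713 to 2210 and 1422 to 2074, with 803 to 904 and 90 to 217 of the genes raised by 2 h of Bic and 16 to 20 and 36 to 46 of those raised by 0.5 h. Depth limited genes under 1 CPM, whose fold changes depend on few reads.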
